A study of Mus musculus with 24 samples.

Results

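Rmrp and Rpph1 are the RNA subunits of RNase MRP and RNase P, and their counts were followed through every library of the TET2 crosslinking and the 5-hydroxymethylcytosine (hm5C) pull-down experiments in mouse embryonic stem cells. Both genes were found by Ensembl identifier, 2 of the 53900 features in the count tables, and both passed the filter on low counts in both experiments, by their input libraries alone as well. RNase P is the ribozyme that removes the 5′ leader of precursor tRNAs. RNase MRP is its sister ribonucleoprotein, carries most of the same protein subunits, and takes part in precursor rRNA processing at the first internal transcribed spacer. Both RNAs are made by RNA polymerase III from promoters that lie outside the transcribed region, and mutations of the human RMRP gene cause cartilage-hair hypoplasia. TET2 turns 5-methylcytosine of DNA and RNA into hm5C by oxidation.

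The crosslinking and immunoprecipitation (CLIP) experiment used E14 cells, an established mouse embryonic stem cell line, in 2 separate clones named 65 and 75 that carry His- and HA-tagged TET2. Both clones were given 500 µM 4-thiouridine for 4 h and UVB light at 400 mJ/cm2, in the input as well as in the TET2 CLIP libraries, and 2 libraries of each kind were made per clone. The RNA immunoprecipitation (RIP) experiment used RNA of untreated embryonic stem cells of strain B6;129, with 2 libraries pulled down with an hm5C antibody and 2 input libraries, all made with a small RNA kit. Cells of both experiments grew with LIF at 100 U/mL, CHIR99021 (a GSK3 inhibitor) at 3 µM and PD0325901 (a MEK inhibitor) at 1 µM. CLIP from cells without the tag, and pull-down with a control antibody, were not analysed here. In bulk RNA, fewer cells of a type and less RNA per cell cannot be told apart.

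Total counts ran from 913002 to 4729463 in the CLIP inputs, from 221060 to 453944 in TET2 CLIP, from 4641963 to 4889943 in the RIP inputs and from 1564014 to 2100187 in the hm5C RIP libraries. All 12 pluripotent cell markers had counts in each of the 8 CLIP libraries, with a summed level of 1229 to 2239 CPM of the plain library total (CPM, counts scaled to a common total), against 123 to 299 CPM for 8 extraembryonic endoderm markers, 49.8 to 454 for 5 trophoblast markers and 0 to 22.4 for 6 fibroblast markers. The trophoblast sum was 49.8 to 98.0 in TET2 CLIP and 218 to 454 in input, and Gata3 held 2758 of its counts. Gata3 was at a log2 change of -4.06 in TET2 CLIP over both clones and was called lower by edgeR and by DESeq2. The other tested trophoblast marker, Tfap2c, was at 0.51 (edgeR adjusted p = 0.271). In the RIP libraries, made with a small RNA kit, the pluripotent markers summed to 31.9 to 33.1 in input and 17.3 to 38.6 in hm5C RIP. The extraembryonic endoderm markers summed to 4.52 to 6.95 and 11.4 to 19.8, and the trophoblast markers to 1.08 to 2.25 and 5.24 to 5.75. The fibroblast markers summed to 3.23 to 3.27 and 35.8 to 44.8. Of these Col1a2 held 159 counts over the 4 libraries and no other fibroblast marker more than 13. The part of other cell types in the results was not tested. The hm5C RIP libraries were dominated by 1 feature, Acsl6, which held 57.9 ± 3.85% of their counts against 0.211 ± 0.0619% in input (SD, n = 2). Replicates were biological replicates per the design text.

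Rmrp (ENSMUSG00000115420) lies at chr4:43492785-43493059 of GRCm38.p6, 275 nt long, and Rpph1 (ENSMUSG00000092837) at chr14:50807447-50807771, 325 nt long. Neither overlapped another gene of the RefSeq table. A second Rmrp identifier, ENSMUSG00000088088, had 0 counts in all 12 libraries. Each gene sits close to a protein-coding neighbour: Ccdc107 starts 280 bp beyond Rmrp, and Parp2, which encodes a poly(ADP-ribose) polymerase, starts 125 bp beyond Rpph1. The RefSeq promoter windows of these 2 neighbours, which reach into both gaps, are shown up to the neighbour's start, plus strand, 5′ to 3′. They hold DNA near the members. Capitals mark exact matches, on either strand, to TATAAA, ATGCAAAT (the octamer bound by POU factors), CCAAT or GGGCGG.
Ccdc107 window, chr4:43493115-43493339: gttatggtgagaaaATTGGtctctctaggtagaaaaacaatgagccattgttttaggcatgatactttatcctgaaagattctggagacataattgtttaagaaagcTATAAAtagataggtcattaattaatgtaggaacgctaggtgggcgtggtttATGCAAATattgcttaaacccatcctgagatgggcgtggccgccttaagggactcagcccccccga
Parp2 window, chr14:50807666-50807896: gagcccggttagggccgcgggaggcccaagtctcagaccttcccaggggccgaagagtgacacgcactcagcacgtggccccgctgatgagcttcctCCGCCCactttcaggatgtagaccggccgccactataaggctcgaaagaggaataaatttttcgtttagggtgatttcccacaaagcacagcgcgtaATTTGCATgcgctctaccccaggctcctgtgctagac

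Both windows held the octamer, 215 bases beyond the end of Rmrp with the higher coordinate and 89 bases beyond that of Rpph1, the second on the minus strand. The octamer was in 1.74% of the 32851 RefSeq promoter windows. The Ccdc107 window also held TATAAA 163 bases beyond Rmrp, a motif of 13.6% of windows, and CCAAT, of 37.4%. This window begins at position 43493115, whereas Rmrp ends at 43493059, so the bases directly beside Rmrp were not searched. The first 106 bases of the Parp2 window belong to annotated Rpph1, and its GGGCGG match, a motif of 35.7% of windows, lies within them. TATATA, in 5.67% of windows, was in neither. These matches are descriptions of the letters and not of bound sites.

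RNase MRP RNA was among the most counted features of the TET2 CLIP libraries. Rmrp took 2848 and 3954 counts in TET2 CLIP of clone 65 and 4181 and 2937 in clone 75. As a share of the library this was 1.29% (95% exact binomial interval 1.24 to 1.34), 1.77% (1.72 to 1.83), 0.921% (0.894 to 0.949) and 1.15% (1.11 to 1.19). By count it ranked 4 and 3 among all features in clone 65, and 5 and 4 in clone 75. In the inputs it took 1723 and 2404 counts in clone 65 and 517 and 1348 in clone 75, a share of 0.0508 to 0.0592%, and ranked between 67 and 96. The intervals cover counting error alone.

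On the scale of CPM with library totals adjusted by TMM factors, used from here on, Rmrp stood at 14946 and 19290 in TET2 CLIP of clone 65 and at 8935 and 11091 in that of clone 75. Its inputs were at 507 and 418 in clone 65 and at 647 and 612 in clone 75. All 4 TET2 CLIP libraries were far above all 4 inputs, and the inputs stayed within a narrow range. The means were 13566 ± 4555 CPM in TET2 CLIP and 546 ± 104 CPM in input (SD, n = 4). Over both clones Rmrp rose by 4.60 on the log2 scale (SE 0.158, 95% interval 4.28 to 4.92, 24.3-fold; edgeR quasi-likelihood test with Benjamini-Hochberg adjustment, adjusted p = 5.65e-20). Of the 10334 features tested, 45 had a higher change.

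**Figure D1:**
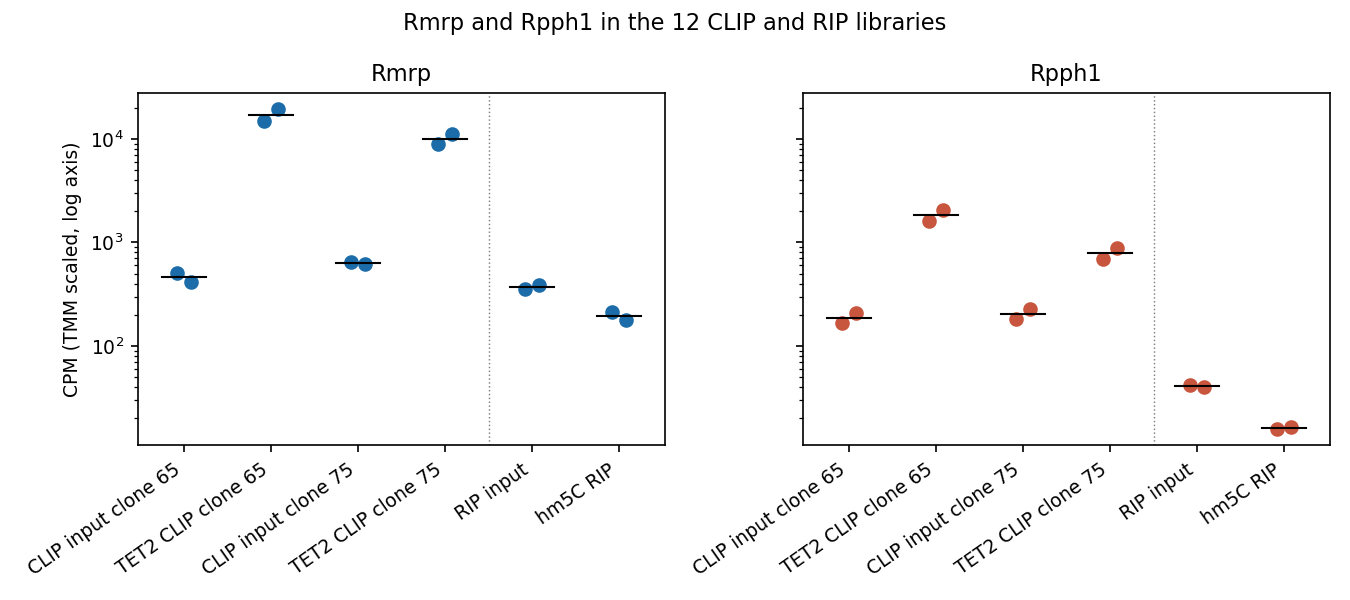
CPM with TMM scaling (log axis) of Rmrp and Rpph1 in each of the 12 libraries by group; points are single libraries, black bars the mean of 2, and the dotted line separates CLIP from RIP, which were scaled separately. Both RNAs sit higher in TET2 CLIP than in input in both clones, and lower in hm5C RIP than in RIP input.

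RNase P RNA rose less. Rpph1 took 307 and 421 counts in TET2 CLIP of clone 65 and 321 and 234 in clone 75, against 566 and 1184, and 144 and 495, in the far deeper inputs. In CPM it stood at 1611 and 2054 in TET2 CLIP of clone 65 and at 686 and 884 in clone 75. The inputs were at 167 and 206 in clone 65 and at 180 and 225 in clone 75. Here too the TET2 CLIP and input libraries did not overlap. The means were 1309 ± 637 CPM and 194 ± 25.9 CPM (SD, n = 4), and Rpph1 rose by 2.61 on the log2 scale (SE 0.133, 95% interval 2.34 to 2.88, 6.10-fold; edgeR adjusted p = 4.26e-16), with 332 features higher. Both RNAs were thus called higher, where 8.99% of all tested features were, and both had groups that did not overlap, which 8.59% of features showed in that direction.

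Compared per length, Rmrp had more counts than Rpph1 in every library. In input it averaged 1986 ± 379 CPM per kb against 598 ± 79.8 for Rpph1, and in TET2 CLIP 49328 ± 16563 against 4027 ± 1958 (SD, n = 4). The plain ratio of Rmrp to Rpph1 counts within a library needs no scaling factor. It was 3.04 and 2.03 in the inputs of clone 65, 3.59 and 2.72 in those of clone 75, 9.28 and 9.39 in TET2 CLIP of clone 65, and 13.0 and 12.6 in that of clone 75. The lowest TET2 CLIP ratio was above the highest input ratio. The geometric means were 10.9 and 2.79, a difference of 1.97 on the log2 scale or 3.92-fold. The two-sided exact permutation test gave p = 0.02857, the smallest that 70 arrangements of 4 against 4 allow. After Benjamini-Hochberg adjustment over the 2 ratio tests made it was 0.05714, which is not past 0.05. This test exchanged libraries between the clones. With exchanges within clone only, the permutation test gave p = 0.05556, the smallest that 36 arrangements allow, and 0.1111 after adjustment.

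**Figure D2:**
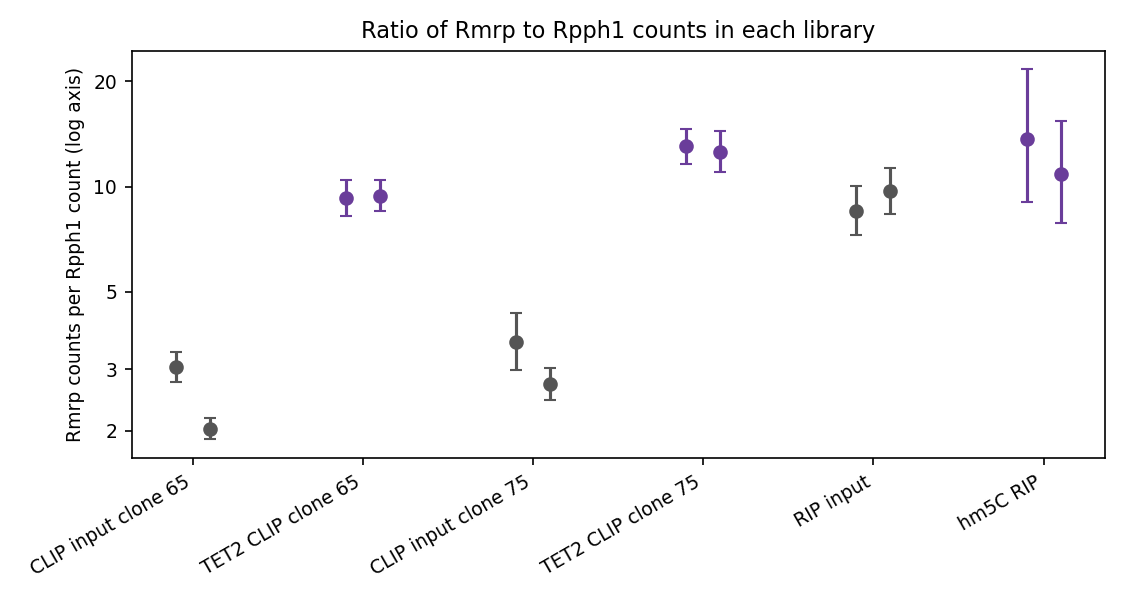
Counts of Rmrp per count of Rpph1 (log axis) in each library, with 95% exact intervals that cover counting error alone; grey points are inputs and purple points TET2 CLIP or hm5C RIP. The 4 CLIP inputs lie between 2.03 and 3.59 and the 4 TET2 CLIP libraries between 9.28 and 13.0. The RIP inputs, from other cells, another treatment and another library kit, lie at 8.52 and 9.70, and the cause was not tested.

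Taken clone by clone, both RNAs rose in each clone and rose further in clone 65. Rmrp averaged 17118 ± 3072 CPM in TET2 CLIP of clone 65 against 462 ± 63.3 in its input, and 10013 ± 1525 against 630 ± 24.96 in clone 75 (SD, n = 2). Its log2 change was 5.21 (SE 0.229; adjusted p = 2.43e-17) in clone 65 and 3.99 (SE 0.218; adjusted p = 5.46e-14) in clone 75. Rpph1 averaged 1832 ± 313 CPM against 186 ± 27.7 in clone 65, and 785 ± 140 against 203 ± 31.4 in clone 75. Its log2 change was 3.30 (SE 0.187; adjusted p = 7.23e-15) in clone 65 and 1.92 (SE 0.190; adjusted p = 5.63e-09) in clone 75, all by edgeR. The share of features called higher was 8.22% in clone 65 and 6.18% in clone 75.

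The difference between the clones was tested as an interaction. The change of Rmrp was lower in clone 75 by 1.22 on the log2 scale (log2 difference -1.22, 95% interval -1.78 to -0.657; edgeR adjusted p = 0.0109) and that of Rpph1 by 1.38 (log2 difference -1.38, 95% interval -1.90 to -0.849; adjusted p = 0.00158). Of all features 2.22% were called lower in this sense and 0.329% higher. With library size alone as the scaling the differences were -0.65 and -0.81, with adjusted p of 0.129 and 0.0672 in edgeR. The median of all features then lay at 0.58 instead of 0.02, and relative to that median the differences were -1.23 and -1.39. A change of scaling moves all features by about the same amount. The distance to the median could therefore hardly change, and it is no check on the scaling. Single libraries also decided the call: Rmrp was at -1.07 with adjusted p = 0.139 without CLIP input clone 65 replicate 2, and Rpph1 at -1.20 (adjusted p = 0.0649) without CLIP input clone 65 replicate 1 and at -1.13 (adjusted p = 0.104) without CLIP input clone 75 replicate 2.

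The 2 clones' inputs gave the levels before pull-down. Rmrp was at 630 ± 24.96 CPM in clone 75 and 462 ± 63.3 in clone 65 (SD, n = 2), a log2 difference of 0.44 (SE 0.196; edgeR adjusted p = 0.216). For Rpph1 the log2 difference was 0.14 (95% interval -0.228 to 0.503; adjusted p = 0.784). Neither was called, where 6.97% of features were. Fitted on the 4 input libraries alone, the Rmrp difference was 0.42 with adjusted p = 0.000318. The SE in that fit was 0.0889 instead of 0.196, with the spread estimated from the 4 inputs without the TET2 CLIP libraries. That fit also tested more features, 14948 instead of 10334, and had its own scaling factors.

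**Figure D3:**
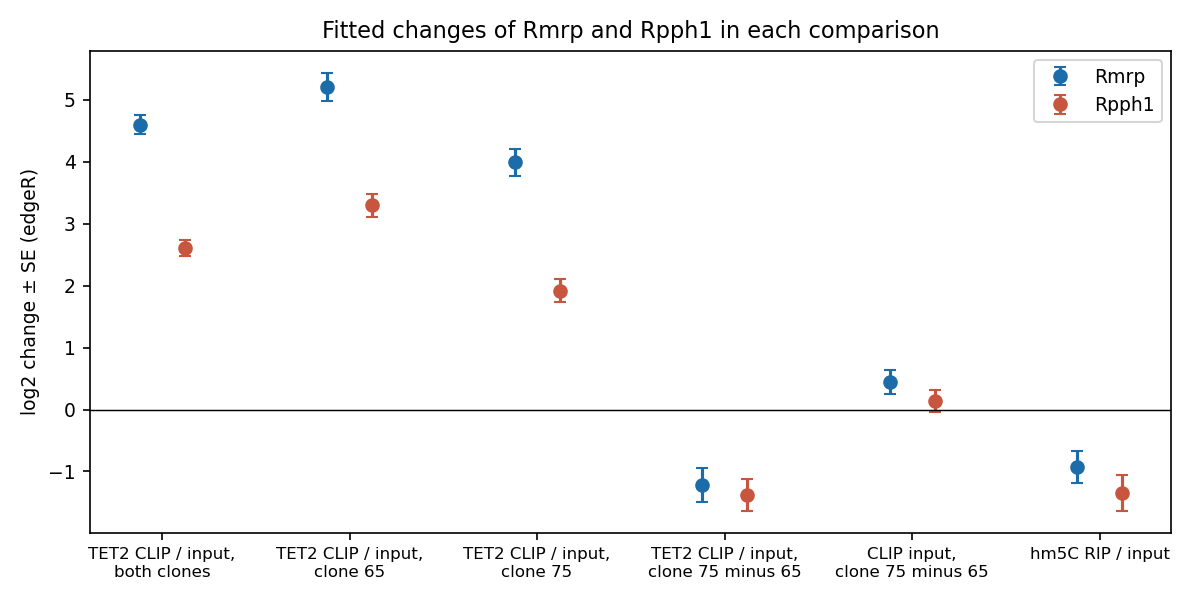
Fitted log2 change with its SE (edgeR) of Rmrp and Rpph1 in each comparison, with 0 as a line. Both lie above 0 in TET2 CLIP in each clone, below 0 for the difference of clone 75 minus clone 65, and below 0 in hm5C RIP under TMM scaling.

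The RefSeq table lists 3 further mouse genes, Rprl1 to Rprl3, as RNase P RNA. Reads may be shared between them and Rpph1, since the counting is not described, and their values are uncertain. Rprl3 (chr8:3803125-3803359) took 122 and 269 counts in input and 108 and 152 in TET2 CLIP of clone 65, and 45 and 109 against 144 and 40 in clone 75. It rose by 3.11 on the log2 scale (SE 0.160; edgeR adjusted p = 1.21e-15). Rprl2 (chr3:22251370-22251607) took 7 and 17 counts against 35 and 52 in clone 65, and 0 and 13 against 39 and 12 in clone 75, and passed the filter only through its TET2 CLIP libraries, so that its fitted log2 change of 5.17, which ran from 4.75 to 7.96 when 1 library was left out (7.96 without CLIP input clone 75 replicate 2), is no support for a rise. Rprl1 had 0 counts in all 12 libraries. When the counts of these genes were added to Rpph1, an alternative chosen after seeing the data, the change of Rpph1 was 2.80 and the difference in the log2 ratio to Rmrp was 1.78.

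The other small structured RNAs showed how far the rise was shared. Of 8 such RNAs tested, 7 were called higher in TET2 CLIP and 0 lower, where 8.99% of all features were higher and 5.83% lower, with a median log2 change of 2.00 against -0.03 over all features. Rn7s6 among them passed the filter only through TET2 CLIP, and of the 7 that passed by their inputs 6 were called higher, with a median of 1.69. Vaultrc5, the vault RNA, rose by 2.72 (SE 0.135; adjusted p = 2.26e-16), from 90.9 ± 21.0 to 742 ± 488 CPM (SD, n = 4). Rn7sk, the 7SK RNA that holds the elongation factor P-TEFb inactive, rose by 2.41 (SE 0.143; adjusted p = 1.62e-14), from 1424 ± 101 to 7892 ± 3067 CPM. The Y RNAs Rny1 and Rny3, partners of the Ro60 protein, rose by 2.31 and 1.69. The signal recognition particle RNAs Rn7s1 and Rn7s2 rose by 1.40 and 0.90, while Rn7s6 averaged 3.42 ± 1.52 CPM in input and 23.3 ± 21.8 CPM in TET2 CLIP (SD, n = 4). Telomerase RNA, Terc, was at -0.64, with an unadjusted p of 0.0207 and an adjusted p = 0.104 in edgeR. The change of Rmrp was above that of all 8, and that of Rpph1 lay between Vaultrc5 and Rn7sk, and the differences between RNAs were not tested.

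Of the RNA polymerase III transcripts with external promoters, 5 were tested (Rmrp, Rpph1, Rn7sk, Rny1 and Rny3), and 5 of 5 were called higher, where 8.99% of all features were, with a median of 2.41. All 5 had a smaller change in clone 75, with log2 differences of -1.22 for Rmrp, -1.38 for Rpph1, -0.98 for Rn7sk, -1.93 for Rny1 and -1.27 for Rny3, each past the threshold in the edgeR fit, where 2.22% of all features were called lower. The call was lost in 8 alternatives for Rn7sk and in 4 for Rny3, and the direction was the same in every alternative run. In the inputs Rny1 was itself higher in clone 75, by 0.69 (edgeR adjusted p = 0.00509), and the others of the 5 were not called there.

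**Figure D4:**
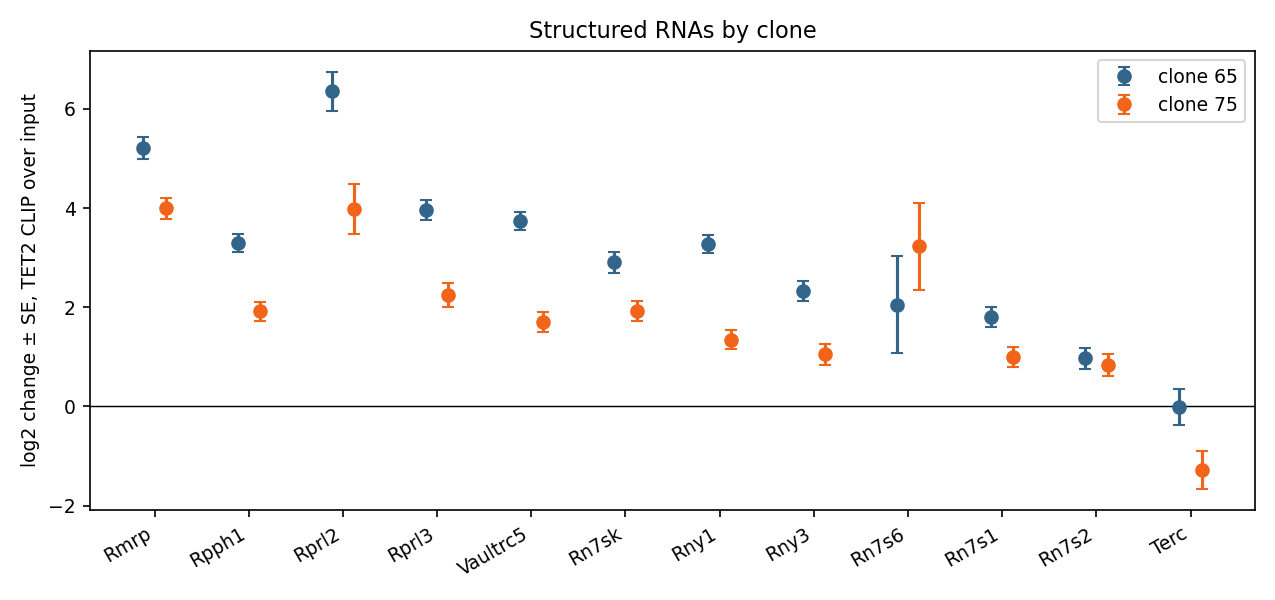
Log2 change with its SE (edgeR), TET2 CLIP over input, of the members, the RNase P RNA-like genes and other structured RNAs in clone 65 (blue) and clone 75 (orange). Rmrp lies at 5.21 and 3.99, and most RNAs lie lower in clone 75, with Rn7s6, which has few counts, as an exception.

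No mRNA of a protein subunit was called higher in TET2 CLIP, with few of them tested. Of 11 subunits, 5 had enough counts to be tested. Of these 0 were called higher and 1 lower, where 8.99% of all features were higher and 5.83% lower. With 5 tested, 0 called higher is near the share of all features. An unadjusted p under 0.05 and the DESeq2 Wald test each picked the same 1 as lower. Pop1, the largest subunit of both enzymes, fell by 0.84 on the log2 scale (SE 0.269; edgeR adjusted p = 0.0308), from 63.3 ± 5.55 to 36.7 ± 17.9 CPM (SD, n = 4), and without CLIP input clone 65 replicate 2 its adjusted p was 0.0516. Rpp40, Rpp14, Pop5 and Rpp25 were at 0.36, -0.12, -0.42 and -0.09, none past the threshold. These values concern recovered mRNA and not the proteins.

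Among 11 tested mRNAs of tRNA end maturation and RNA chaperone proteins, 1 was called higher and 0 lower, a share near the 8.99% of all features called higher. It was Elac2, the RNase Z that removes tRNA 3′ trailers, at 0.89 (adjusted p = 0.0286), a call lost in 11 alternatives. Of the mitochondrial RNase P proteins, which work without an RNA subunit, Trmt10c passed the filter only through TET2 CLIP and was at 1.32, with 2.98 in clone 65 and -0.34 in clone 75, while 1110008L16Rik was at -0.50 (adjusted p = 0.62). Of 12 tested cofactors of rRNA spacer processing 0 were called higher, with 1 (Nop14) at an unadjusted p under 0.05, and 2 lower, against 8.99% higher and 5.83% lower of all features. The lower ones were Pdcd11 at -1.03 (adjusted p = 0.000443) and Wdr12 at -0.76 (adjusted p = 0.00127); DESeq2 called 0 higher and 3 lower. Another 9 genes were those for RNA polymerase III initiation and the complex that recognises these external promoters. Of these 0 were called in either direction by edgeR, against the same shares of all features, and 0 by DESeq2. An unadjusted p under 0.05 was found for 0, and the median was 0.06 against -0.03 over all features. Of 11 snoRNAs of rRNA processing 3 had enough counts to be tested, and 1 was called higher and 2 lower, against the same shares of all features. Snord118 (U8) rose by 1.27, Snord13 fell by 1.51 and Snora17 fell by 1.20 over both clones. In clone 75 alone Snord118 was at 0.49 (adjusted p = 0.0681), and Snora17 was called in neither clone alone (adjusted p = 0.0741 and 0.0819).

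The protein-coding neighbours of Rpph1 were not called in TET2 CLIP, on few counts, and those of Rmrp could not be tested. Counts per TET2 CLIP library were 2 to 13 for Parp2 and 1 to 6 for Ccnb1ip1. Parp2, 125 bp from Rpph1, was at a log2 change of 0.05 (adjusted p = 0.954), and Ccnb1ip1, 11718 bp away on the other side, at -0.62 (adjusted p = 0.483). Ccdc107 and Sit1, the neighbours of Rmrp, had too few counts to be tested.

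By the distance of centred log2 CPM profiles over the 8 CLIP libraries, 9181 features with a mean of at least 20 counts were ranked against each member. The nearest to Rmrp were the tRNA gene chr6.tRNA107-ArgCCT (root mean square distance 0.282), Gm23849 (0.394), Plag1 (0.411), Gm23966 (0.420) and Gm23731 (0.425), the last 2 annotated as small nuclear RNAs. The nearest to Rpph1 were Gm23973 (0.171), Gm22816 (0.172) and the 5S rRNA genes n-R5s213, n-R5s169 and n-R5s175 (0.204 to 0.207), which are near-identical copies and uncertain as single genes. Rpph1 was at rank 109 from Rmrp and Rmrp at rank 462 from Rpph1, at a distance of 1.02. The 8 libraries come from 2 clones, and no test was made.

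In the hm5C pull-down both RNAs lay below input under TMM scaling. Rmrp took 328 and 435 counts in hm5C RIP and 1474 and 1852 in input, which was 213 and 179 CPM against 353 and 390. Rpph1 took 24 and 40 counts against 173 and 191, which was 15.6 and 16.4 CPM against 41.5 and 40.2. For both RNAs the 2 hm5C RIP libraries lay below the 2 inputs. Mean levels were 196 ± 24.1 against 371 ± 25.8 CPM for Rmrp and 15.98 ± 0.601 against 40.8 ± 0.898 CPM for Rpph1 (SD, n = 2).

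Rmrp fell by 0.93 on the log2 scale (SE 0.259, 95% interval -1.52 to -0.329; edgeR adjusted p = 0.0175) and Rpph1 fell by 1.35 (SE 0.290, 95% interval -2.02 to -0.678; adjusted p = 0.00541). Among the 2081 features tested 18.9% were called lower and 33% higher, and 35% had groups that did not overlap with hm5C RIP lower, so that this position was a common one. Acsl6 held 55.2 and 60.6% of the counts of the 2 hm5C RIP libraries, and the calls were repeated under other scalings. They held with DESeq2 size factors (-1.31 and -1.71; adjusted p = 0.000303 and 0.000465), with library size alone (-0.74 and -1.14; adjusted p = 0.0187 and 0.00936) and with TMM after leaving out Acsl6 (-1.09 and -1.50; adjusted p = 0.000924 and 0.000805). Once Acsl6 was left out and, together with that, only library size was used, Rmrp was at 0.51 (adjusted p = 0.0714) and Rpph1 at 0.12 (adjusted p = 0.781), the opposite direction, and scaled by the summed tRNA gene counts they were at -0.32 (adjusted p = 0.286) and -0.72 (adjusted p = 0.0721). Across these scalings the median of all features moved from -0.21 to 1.95. Relative to that median Rmrp lay at -1.08 to -1.46 and Rpph1 at -1.49 to -1.86 in the 6 scalings plotted. The values -1.46 and -1.86 came from a fit without Acsl6, on 2523 features. Scaling moves all features by about the same amount, so these distances are no check on it.

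**Figure D5:**
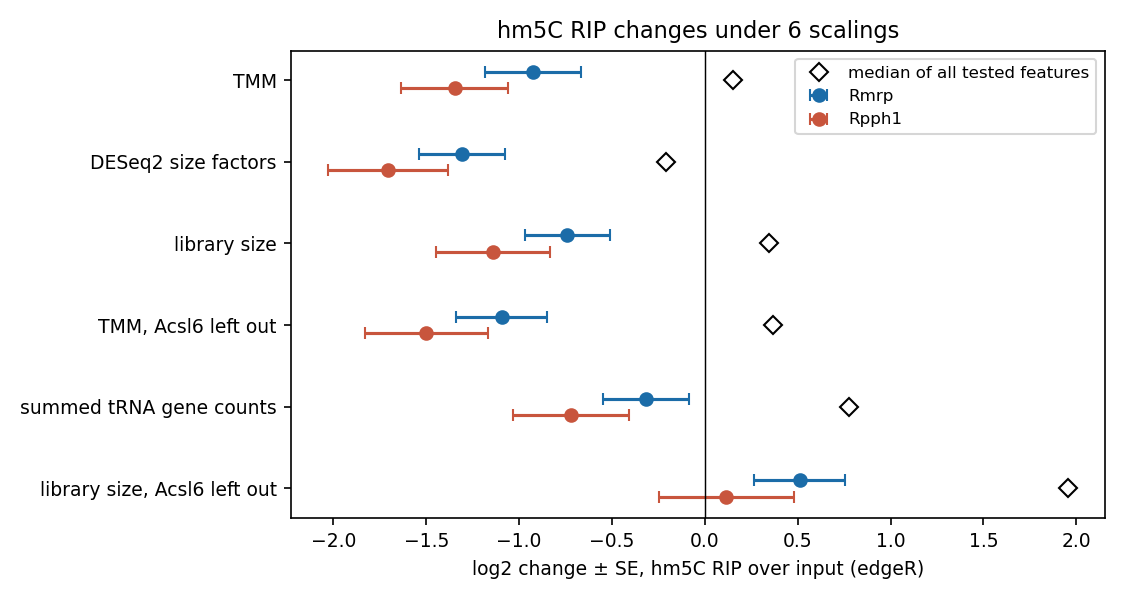
Log2 change with its SE (edgeR) of Rmrp and Rpph1, hm5C RIP over input, under 6 scalings, with the median of all tested features as open diamonds. Both members lie left of the median in each of the 6. A scaling moves members and median by about the same amount, so this order is no separate check. The fits without Acsl6 tested 2523 features and the others 2081.

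The ratio of Rmrp to Rpph1 counts was 8.52 and 9.70 in the RIP inputs and 13.7 (95% interval 9.03 to 21.6) and 10.9 (7.86 to 15.4) in hm5C RIP. The difference was 0.42 on the log2 scale, with a two-sided exact permutation p of 0.3333, the smallest that 2 against 2 allows. The wide intervals come from the 24 and 40 counts of Rpph1.

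Among the other polymerase III transcripts in hm5C RIP under TMM scaling, Rny1 fell by 1.47 (adjusted p = 0.00293) and Rn7sk by 0.98 (adjusted p = 0.0301), while Rny3 was at 0.45 (adjusted p = 0.156). With the 2 members, 4 of the 5 tested were called lower and 0 higher, by edgeR and by DESeq2, where 18.9% of all features were called lower and 33% higher, with a median of -0.98 against 0.15 over all features. Under library size without Acsl6, Rn7sk was at 0.47 (adjusted p = 0.148) and Rny1 at -0.043 (adjusted p = 0.875). Vaultrc5 was at 0.27 (adjusted p = 0.531) and Rn7s1 was called higher at 0.80 (adjusted p = 0.0292), a call lost in 6 alternatives. None of the protein subunits or RNase P RNA-like genes had enough counts in RIP to be tested; Rprl3 took 14 and 14 counts in input and 0 and 3 in hm5C RIP.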

How the data were processed

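The deposited values were raw read counts per feature, made by the authors on genome build mm10; the submitters' processing notes name STAR 2.5.3a, Bowtie2 2.2.6, cutadapt and UMI-tools. Nothing used here states the counting tool, annotation or use of strand (not given in the sources used here). RefSeq coordinates and sequences were those of GRCm38.p6, the assembly of mm10. The CLIP table (8 libraries) and the RIP table (4 libraries) were fitted separately with edgeR 4.0.16 in R 4.3.3, by its quasi-likelihood F-test (robust fit, TMM factors, filterByExpr), with Benjamini-Hochberg adjustment over all tested features and a threshold of 0.05. Groups followed the labels. CPM is the count over library total times TMM factor. The filter asks for a minimum count in at least the number of libraries of 1 group, so a feature scarce in input could enter only by being high in the pull-down.

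Named were Rmrp and Rpph1, list members past the threshold (up to 4 by p) or tested members of short lists, the nearest genes, the 5 nearest profiles and Acsl6. The members, lists and tests were chosen with earlier results of these data known. Alternatives were DESeq2 1.42.0 (size factors, Wald test), library size alone, no filter, a replicate block, leaving out each library, leaving out Acsl6 or the 20 most counted features, and scaling by tRNA counts. In tests on simulated counts on 9513 features the CLIP fit found 57.4% of changes of 2-fold and 97% of 4-fold, and on 1841 features the RIP fit found 13% and 77.2%. The spread between replicates exceeded counting error: chi-square divided by its degrees of freedom was 1.82 to 3.38 in CLIP, and 26.4 and 22.5 in RIP. The small RNA table holds tRNA fragments only and was not used.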

Additional observations from a re-analysis of the deposited data

Results flagged for a closer look

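The change in TET2 CLIP over input differed between the clones for 10 genes of the lists, each by a tested interaction of clone 75 minus clone 65 (edgeR, log2 differences). They were Rmrp (-1.22), Rpph1 (-1.38), Rprl3 (-1.70), Rny1 (-1.93), Rny3 (-1.27), Vaultrc5 (-2.03), Rn7sk (-0.98), Snord118 (-1.55), and the mRNAs of Trmt10c (-3.33) and Ssb (-2.44), the La protein that binds the 3′ end of new polymerase III transcripts. Ssb was at 1.53 in clone 65 and -0.90 in clone 75, with 0.32 (adjusted p = 0.608) over both clones, and its clone difference lost the call whenever 1 library was left out (adjusted p 0.0639 to 0.164). Trmt10c was at 2.98 and -0.34, and its adjusted p was 0.177 without CLIP input clone 75 replicate 2. It passed the filter only through TET2 CLIP, so its values are no support for a clone difference. In all 10 the change was lower in clone 75. Of all features 2.22% were called in that direction and 0.329% in the other, so most calls over all features shared it. The inputs also differed for Snord118, higher in clone 75 by 0.96 (edgeR adjusted p = 0.000189), and for Rny1, by 0.69 (adjusted p = 0.00509). The other genes named were not called in the input comparison. TET2 CLIP libraries held 221060 and 223413 counts in clone 65 and 453944 and 254996 in clone 75. The part of the input levels and of depth in these differences was not tested.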

How the results depend on the processing

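Rmrp and Rpph1 stayed called higher in TET2 CLIP, over both clones and in each clone, in every alternative that tested them. Their log2 changes over both clones were 4.25 to 4.63 and 2.25 to 2.80. Leaving out the 20 most counted features removed Rmrp itself, so that run tested Rpph1 but not Rmrp. The clone difference lost its call with library size alone (-0.65 and -0.81); leaving out 1 library gave -1.35 to -0.93 for Rmrp and -1.51 to -1.11 for Rpph1. In the inputs Rmrp was called on 4 libraries (0.42), and Rpph1 turned to -0.22 with library size alone and to -0.010 and -0.071 without CLIP input clone 65 replicate 1 and clone 75 replicate 2; leaving out 1 library gave it -0.071 to 0.29. In RIP, leaving out 1 library gave -1.34 to -0.86 and -1.76 to -1.39. Scaling by tRNA counts gave -0.32 and -0.72, and library size without Acsl6 gave 0.51 and 0.12, and 0.47, 0.56 and 0.65 for Rn7sk, Snord13 and Snord118. The cause was not tested.

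Same-numbered replicates correlated at -0.00782, 0.0179 and 0.0222 in deviation from their group means (clone 65, clone 75, RIP). Many features had few counts, and counting error alone can bring such correlations near 0. They therefore cannot decide whether the numbers pair the libraries. The inputs of different clones share no culture to block on. With the replicate block, RIP gave -0.93 and -1.35, the clone difference -1.22 and -1.34, and the count ratio in CLIP p = 0.125 by exact sign flips; in clone 75 called features went from 639 to 382 higher and from 407 to 264 lower. Other counts of called features moved by over 1.5 times too. Over both clones 602 lower became 966 (library size), 1871 (no filter) and 1535 (20 features out). In clone 65, 849 higher became 1410 (DESeq2), and 295 lower 1344 (library size) and 1126 (no filter). In clone 75, 407 lower became 271 (library size). The clone difference had 34 higher, then 567, 59 and 13 (library size, no filter, block), and 229 lower, then 102 and 141. The inputs had 524 higher, then 248 (library size) and 1057 (4 libraries), and 196 lower, then 1485, 651 and 112 (DESeq2). RIP had 686 higher, then 390 (DESeq2) and 1656 (Acsl6 out, library size), and 394 lower, then 92 and 234 (tRNA scaling). Depth limits Rpph1 in hm5C RIP most, with 24 and 40 counts.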
